A study of Mus musculus with 1003 samples.

Results

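Cluster 2 is the group of cells that carry the number 2 in the authors' cluster label, 17.4% of the 1003 cells of the series. It held 91 RetCFP/+ and 74 RetCFP/CFP cells at embryonic day E12.5 and 10 RetCFP/+ cells at E14.5. The cells were sorted one by one from whole mouse gut for cyan fluorescent protein (CFP). The label alone chose the members. By the authors' prediction 4 of them were neurons and the rest progenitor/glia, 95 were female and 80 male, and none lay in a well marked as holding 2 cells. The comparison cells were the 569 other cells predicted progenitor/glia.

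All embryos carried the RetCFP allele, a CFP cassette in exon 1 of Ret that was made by crossing a floxed RET9-CFP allele to β-actin-Cre mice. RetCFP/+ embryos, the controls, keep 1 intact copy of Ret, so they are heterozygotes and not wild type, and RetCFP/CFP embryos have none. At E12.5 there were 2 female and 2 male embryos of each genotype, 1 of each in each of the library batches HD01 and HD02. The cell table names 1 source plate for each, and a plate was taken as 1 embryo, which is a deduction. The 8 embryos gave 13, 36, 16 and 26 cluster 2 cells in RetCFP/+ and 14, 25, 25 and 10 in RetCFP/CFP. Every set of 4 values by genotype below follows the same order, which is female HD01, female HD02, male HD01 and male HD02. The strain background is not given in the sources used here.

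Ret is the receptor for glial cell line-derived neurotrophic factor (GDNF). It drives the survival, migration and division of the neural crest cells that colonise the gut, and its loss leaves the bowel without ganglia, as in Hirschsprung disease. Dividing progenitors copy their DNA in S phase, when the replicative helicase, the DNA polymerases, the supply of deoxynucleotides and new histones are all needed, and then make the cyclin B and spindle genes that carry them through G2 and mitosis.

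Values are estimated transcripts per cell, and they rise in general with the number of genes detected in a cell. Cluster 2 cells had a median of 896101 reads and 5850 detected genes, against 4148 detected genes in the other progenitor/glia cells. By embryo, the median was 4512, 6586, 5049 and 6412 detected genes in RetCFP/+ and 5238, 7302, 5139 and 6872 in RetCFP/CFP, higher in RetCFP/CFP in each of the 4 pairs of the same sex and batch. HD02 was higher than HD01 in every pair of the same genotype and sex. The part of this depth in the results was not tested beyond the refits reported with them.

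To show how the cell cycle genes of the cluster differ at their promoters, the sequences before the start of 3 mitotic genes that differed between genotypes in the cluster (Ube2c, Cdk1 and Cdc20) and of 1 S phase gene that did not pass that test (Mcm6) are printed from RefSeq on GRCm38.p6. Each is read 5′ to 3′ on the gene's strand. Bases that lie inside the gene's GENCODE interval were left off. Capitals mark matches, on either strand, to the CCAAT box (CCAAT), to the cell cycle homology region (CHR, TTTGAA) and to the E2F motif (TTTCCCGC, TTTCGCGC, TTTGCCGC or TTTGGCGC), and matches may overlap. Ube2c lies at chr2:164769679-164769897 on the plus strand, Cdk1 at chr10:69352939-69353162, Cdc20 at chr4:118437353-118437593 and Mcm6 at chr1:128359706-128359955, all 3 on the minus strand.
Ube2c: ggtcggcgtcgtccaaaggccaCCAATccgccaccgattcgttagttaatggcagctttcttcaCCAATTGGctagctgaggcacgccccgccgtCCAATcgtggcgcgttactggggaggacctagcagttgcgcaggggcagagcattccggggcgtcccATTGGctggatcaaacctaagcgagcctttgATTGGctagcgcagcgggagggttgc
Cdk1: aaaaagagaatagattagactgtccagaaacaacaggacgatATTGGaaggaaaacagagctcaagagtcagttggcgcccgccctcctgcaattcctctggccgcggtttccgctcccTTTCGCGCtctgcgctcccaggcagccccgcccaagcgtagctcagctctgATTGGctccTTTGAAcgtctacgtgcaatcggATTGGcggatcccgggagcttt
Cdc20: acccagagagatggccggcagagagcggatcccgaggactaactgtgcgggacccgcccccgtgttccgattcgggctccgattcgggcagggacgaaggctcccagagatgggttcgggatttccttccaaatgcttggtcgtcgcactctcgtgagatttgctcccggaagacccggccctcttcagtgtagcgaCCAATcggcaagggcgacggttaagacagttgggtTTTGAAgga
Mcm6: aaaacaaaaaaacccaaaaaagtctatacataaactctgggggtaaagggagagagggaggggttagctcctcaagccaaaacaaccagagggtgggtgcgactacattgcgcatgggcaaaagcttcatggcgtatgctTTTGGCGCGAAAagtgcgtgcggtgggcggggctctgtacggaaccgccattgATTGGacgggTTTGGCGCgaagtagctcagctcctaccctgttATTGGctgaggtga

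The Ube2c stretch held 6 CCAAT matches and the Cdc20 stretch 1 CCAAT and 1 CHR match. Cdk1 held 3 CCAAT, 1 CHR and 1 E2F match, and Mcm6 held 3 E2F and 2 CCAAT matches. The windows of the S phase genes Pcna, Rrm2, Rad51ap1, Tyms and Tk1, not printed here, held no E2F match. Mcm6 is thus not typical of them. Over the 250 bases before the start, a CHR match was present in 13 of the 35 G2/M genes that matched the RefSeq table (37.1%, of 39 listed) and in 18.3% of all 27025 genes there. A CHR and a CCAAT match stood together in 11 of those 35 genes (31.4%), against 6.45% of all genes. An E2F match was present in 18 of 75 matched S phase genes (24%, of 94 listed) and in 2.16% of all genes. These matches describe letters in the windows and were not set against the expression values.

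The S phase markers were higher in cluster 2 than in the other progenitor/glia cells of every E12.5 embryo. The clusters were made from these same values, so this is a description with no test. On the log2(mean + 1) scale, 520 of 5016 genes (10.4%) were higher in cluster 2 in all 8 embryos and 2.31% were lower, with a median difference of 0.10 over all 5016. Among the 43 genes of a common S phase list, the median difference within an embryo ranged from 0.222 to 0.837, and the 4 lowest of the 8 values belonged to the 4 RetCFP/CFP embryos.

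Hist1h2ao, which encodes a histone H2A that is made with new DNA, had a mean of 16.4, 10.9, 6.91 and 20 transcripts per cell in RetCFP/+ cluster 2 cells and 10.2, 11.2, 10.1 and 17.8 in RetCFP/CFP cells. The other progenitor/glia cells of the same embryos lay between 0.679 and 5.13 transcripts per cell, below every cluster 2 value. Its mean log2 difference was 1.70 ± 0.87 (SD, n = 8 embryos). Replication-dependent histone messages mostly end without a poly(A) tail and this assay copies polyadenylated RNA, so their levels are a partial view. The gene overlaps Gm19658 on the opposite strand, and near-identical histone copies can share reads, so its level is uncertain.

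Exo1, a 5′ to 3′ exonuclease of mismatch and break repair, had 5.24, 6.48, 2.66 and 6.92 transcripts per cell in RetCFP/+ and 3.78, 6.73, 4.00 and 7.93 in RetCFP/CFP cluster 2 cells. The other progenitor/glia cells had 0.927 to 3.26, and in each embryo the cluster was higher, by 1.2 ± 0.26 on the log2 scale. It was above 1 transcript in 69.7% of cluster 2 cells, in 26.5% of the other progenitor/glia cells and in 8.88% of predicted neurons. Rad51ap1, a factor of homologous recombination, was above 1 transcript in 57.1%, 17.9% and 8.11% of the same cells. The share in neurons gives the level in a class of mostly non-dividing cells.

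Rrm2, the limiting subunit of the reductase that makes deoxynucleotides, had 13.5, 26.3, 15.1 and 19 transcripts per cell in RetCFP/+ and 11, 20.5, 7.48 and 24.7 in RetCFP/CFP cluster 2 cells. The other progenitor/glia cells had 4.76 to 9.81. The ranges of the 2 sets of cells overlapped, but in each embryo the cluster was higher, with a mean log2 difference of 1.09. Pcna, the sliding clamp of the replication fork, was above 1 transcript in 96.0% of cluster 2 cells, 64.9% of other progenitor/glia cells and 42.1% of neurons. Gmnn, which blocks a further firing of origins once S phase has begun, was above 1 transcript in 80.6%, 38% and 15.8%.

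**Figure D1:**
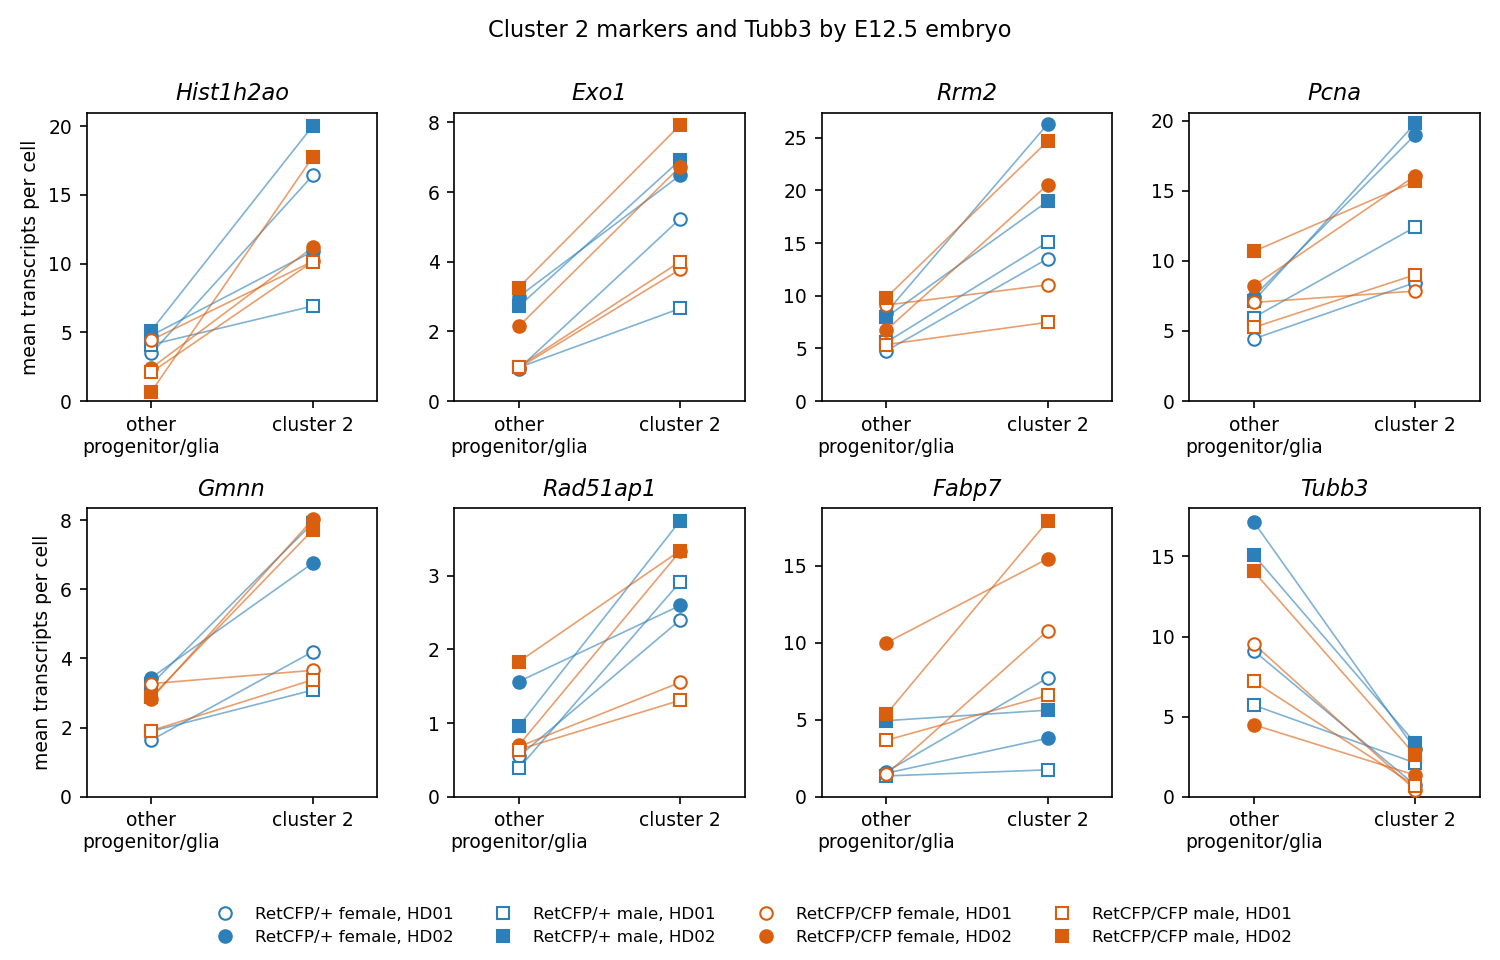
Mean transcripts per cell (linear axis) of the 7 markers and of the neuronal tubulin Tubb3 in the other progenitor/glia cells and in the cluster 2 cells of each E12.5 embryo, joined by a line. All 7 markers stand higher in cluster 2 in 8 of 8 embryos, and Tubb3 stands lower in 8 of 8.

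The replication genes were high as a group. Of the described members, 6 of 24 origin licensing and helicase genes, 13 of 27 polymerase, clamp and fork genes, 6 of 9 nucleotide supply genes, 9 of 12 chromatin assembly genes, 6 of 10 fork repair genes and 10 of 12 replication-dependent histones were higher in all 8 embryos, against 10.4% of all genes. None of the members of these 6 lists was lower in all 8. The list medians lay between 0.45 and 0.63 on the log2 scale. Mcm6 and Mcm7, subunits of the replicative helicase, Tipin, which protects stalled forks, Tyms and Tk1, which make thymidylate, and Slbp, which binds histone messages, were among those higher in all 8 embryos, by 0.66, 0.51, 0.85, 0.76, 0.84 and 0.57 on the log2 scale.

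The G2/M list showed less of a difference. Of its 37 described genes 4 were higher in all 8 embryos, near the 10.4% of all genes, and the list median was 0.28. These values pool the genotypes. For all 37 genes, cluster 2 minus the other cells was larger in RetCFP/CFP than in RetCFP/+, by a median of 0.69. Across the 9 clusters at E12.5, cluster 2 had the highest median share of a cell's transcripts from the S phase list (0.944%), followed by cluster 9 (0.882%) and cluster 1 (0.685%). Its median share from the G2/M list was 0.594%, below the 1.41% of cluster 3, the 0.947% of cluster 4 and the 0.706% of cluster 9.

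**Figure D2:**
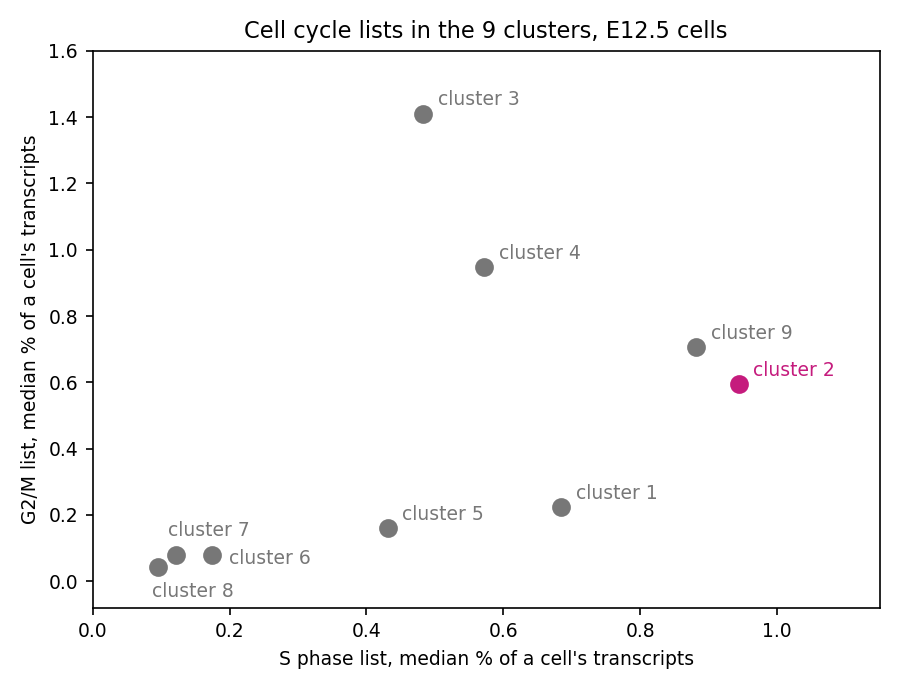
Median percent of a cell's transcripts from the S phase list (horizontal axis) and from the G2/M list (vertical axis) in the E12.5 cells of each of the 9 clusters, 1 point per cluster. Cluster 2 lies farthest right, at 0.944%, and cluster 3 highest, at 1.41%.

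Markers of enteric neural crest were present. Sox10, the factor that keeps these cells as progenitors, was above 1 transcript in 83.4% of cluster 2 cells, 51.3% of the other progenitor/glia cells and 6.95% of neurons. Ednrb, the endothelin receptor, was above 1 transcript in 98.9% of cluster 2 cells, and Erbb3, the neuregulin receptor of glial precursors, in 65.7%. Fabp7, a fatty acid carrier of radial and enteric glia, was above 1 transcript in 69.1%, against 41.7% and 12%. S100b, a marker of mature glia, had at most 0.0793 transcripts per cell in any embryo.

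Most neuronal genes were lower in cluster 2. Of 10 described neuronal genes, 9 were lower in cluster 2 in all 8 embryos (2.31% of all genes were), with a list median of -1.08. Only 5 of the 10 passed the low-value filter in cluster 2. The rest were described only because the other cells were high, which fixed their direction, so nothing is read from that count. The exception was Gap43, a growth cone protein, at 5.37 to 13.5 transcripts per cell in cluster 2 and higher than in the other cells in 3 of 8 embryos. Tubb3 had 0.728, 2.96, 2.11 and 3.35 transcripts per cell in RetCFP/+ and 0.426, 1.35, 0.688 and 2.60 in RetCFP/CFP cluster 2 cells, and 4.50 to 17.2 in the other progenitor/glia cells, with no overlap. The neuropeptide gene Cck (log2 difference -3.27), the RNA-binding protein gene Elavl4 (-1.45) and the noradrenaline enzyme gene Dbh (-1.44) were also lower in 8 of 8 embryos. Epithelial, blood, endothelial and interstitial cell markers were at or near 0. No member of these 4 lists reached a mean of 0.5 transcripts per cell in any embryo, and Cdh1, Krt18, Cdh5 and Tek were listed at 0 in all 8.

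The targeted gene matched the labels. Ret (chr6:118151745-118197718, minus strand, mm10) had a mean of 1.87, 4.88, 3.74 and 3.00 transcripts per cell in RetCFP/+ cluster 2 cells and 0.0904, 0.135, 0.153 and 0.0981 in RetCFP/CFP cells. The genotypes did not overlap. The log2 difference, RetCFP/CFP minus RetCFP/+, was -1.92 ± 0.20 (SE, n = 4 and 4 embryos) with an adjusted p of 0.000244 in limma. In RetCFP/+ 81.3% of cluster 2 cells were above 1 transcript of Ret, and in RetCFP/CFP 2.7%. The CFP transcript, which marks the sorted cells, had 13.7, 33.3, 27.2 and 18.6 transcripts per cell in RetCFP/+ and 13, 19.9, 15.5 and 19 in RetCFP/CFP, and the ranges overlapped. Its log2 difference of -0.38 did not pass the test (adjusted p = 0.473), and with the number of detected genes as a covariate it was -0.95 (adjusted p = 0.0412). The Ret difference within the cluster did not differ beyond its error from that in the other progenitor/glia cells of the same embryos, which was -1.90 (difference -0.02, adjusted p = 0.99).

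Between genotypes, cluster 2 cells of RetCFP/CFP embryos had more Myl9, Anxa2, Postn, Fabp7, Ube2c and Cdk1 and less Ret, Csn3, Dhrs3, Cd9 and Hes1. Of these, Myl9 and Anxa2 were tested only because RetCFP/CFP was high, and Ret, Csn3 and Dhrs3 only because RetCFP/+ was, so the filter fixed their direction. With terms for genotype, sex and batch in limma, 78 of 4736 genes passed at an adjusted p under 0.05 (1.65%), 53 higher in RetCFP/CFP (1.12%) and 25 lower (0.528%). The median log2 difference over all 4736 genes was 0.05. In 29 of the 78, 16 higher and 13 lower, the other genotype lay under the filter in every embryo; for these genes the values by embryo are the description and the direction of the call adds nothing. All 78 had the same sign in each of the 4 pairs and in each batch. The calls were made from these same pairs, so this agreement adds nothing to them. With the number of detected genes as a covariate 44 genes passed, 33 of them among the 78, and Dhrs3, Gsta4, Pdpn, Cnn2, Pls3, Tagln2, Rarb, Spry2, Gal, Cdc20 and Plk1 lost their calls. The call rests on the batch term: without it 19 genes passed, 10 higher and 9 lower. Scaling every cell to the same total left 55 calls, of which 58.2% were higher, against 67.9% on the deposited values. The embryos of the 2 genotypes did not overlap in 3.19% of the tested genes. Of the 78 called genes, 26 (33.3%) are marked in the authors' gene table as used to order cells, as are 2.87% of the genes tested; whether they also drew the clusters is not given in the sources used here.

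Myl9, a myosin light chain of contractile cells, had 0.905, 0.635, 0.405 and 0.922 transcripts per cell in RetCFP/+ and 6.65, 9.54, 4.43 and 8.97 in RetCFP/CFP cluster 2 cells. Every RetCFP/CFP embryo was above every RetCFP/+ embryo. The log2 difference was 2.26 ± 0.18 (SE, adjusted p = 1.5e-05 in limma). Anxa2, a calcium-dependent membrane and actin binder, had 0.219, 0.303, 0.212 and 0.134 in RetCFP/+ and 1.69, 5.85, 3.37 and 5.60 in RetCFP/CFP, again without overlap (log2 difference 1.98, adjusted p = 0.000244). Both Myl9 and Anxa2 passed the filter only through RetCFP/CFP. Anxa2 overlaps Gm16144 on the opposite strand. Anxa5, a phosphatidylserine binder, rose by 1.32 and did not overlap either.

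Postn, a secreted matrix protein of migrating and mesenchymal cells, had 2.86, 3.95, 1.69 and 4.48 transcripts per cell in RetCFP/+ and 8.66, 18.8, 10.9 and 8.98 in RetCFP/CFP. The genotypes did not overlap, and the difference was 1.58 ± 0.19 (SE, adjusted p = 0.000633 in limma). Postn was also higher in cluster 2 than in the other progenitor/glia cells of all 8 embryos, by 1.01. The actin-binding genes Tagln2, Cnn2 and Pls3 rose by 1.4, 1.32 and 1.30, and the surface glycoprotein gene Cd200, tested only through RetCFP/CFP, by 1.43.

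The smooth muscle and mesenchyme list served as a check for other cells. Of its 12 members only Myl9 and Col3a1, a fibrillar collagen, passed the low-value filter, and both were called higher. Both passed only through RetCFP/CFP, since no RetCFP/+ embryo was above 0.922, so nothing is read from that count. The summed level of the 12 was 1.01 to 1.87 transcripts per cell in RetCFP/+ and 7.00 to 14.4 in RetCFP/CFP, mostly Myl9. Myh11, Dcn and Pdgfra, which define mature smooth muscle and fibroblasts, were listed at 0 in all 8 embryos, and Des was at or below 0.31. Acta2 had 0 to 0.0424 in RetCFP/+ and 0.0937 to 0.345 in RetCFP/CFP, and Col1a2 0.00149 to 0.2 and 0.241 to 0.412, both higher in every RetCFP/CFP embryo. The part of such cells in the result was not tested. Tagln was listed at 0 in the 4 RetCFP/+ embryos and had 0.142 to 0.452 in the RetCFP/CFP embryos. Counted over cells, 22 of 91 RetCFP/+ cells (24.2%) were above 1 transcript of Myl9, 55 of 74 RetCFP/CFP cells (74.3%) and 5.79% of neurons.

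**Figure D3:**
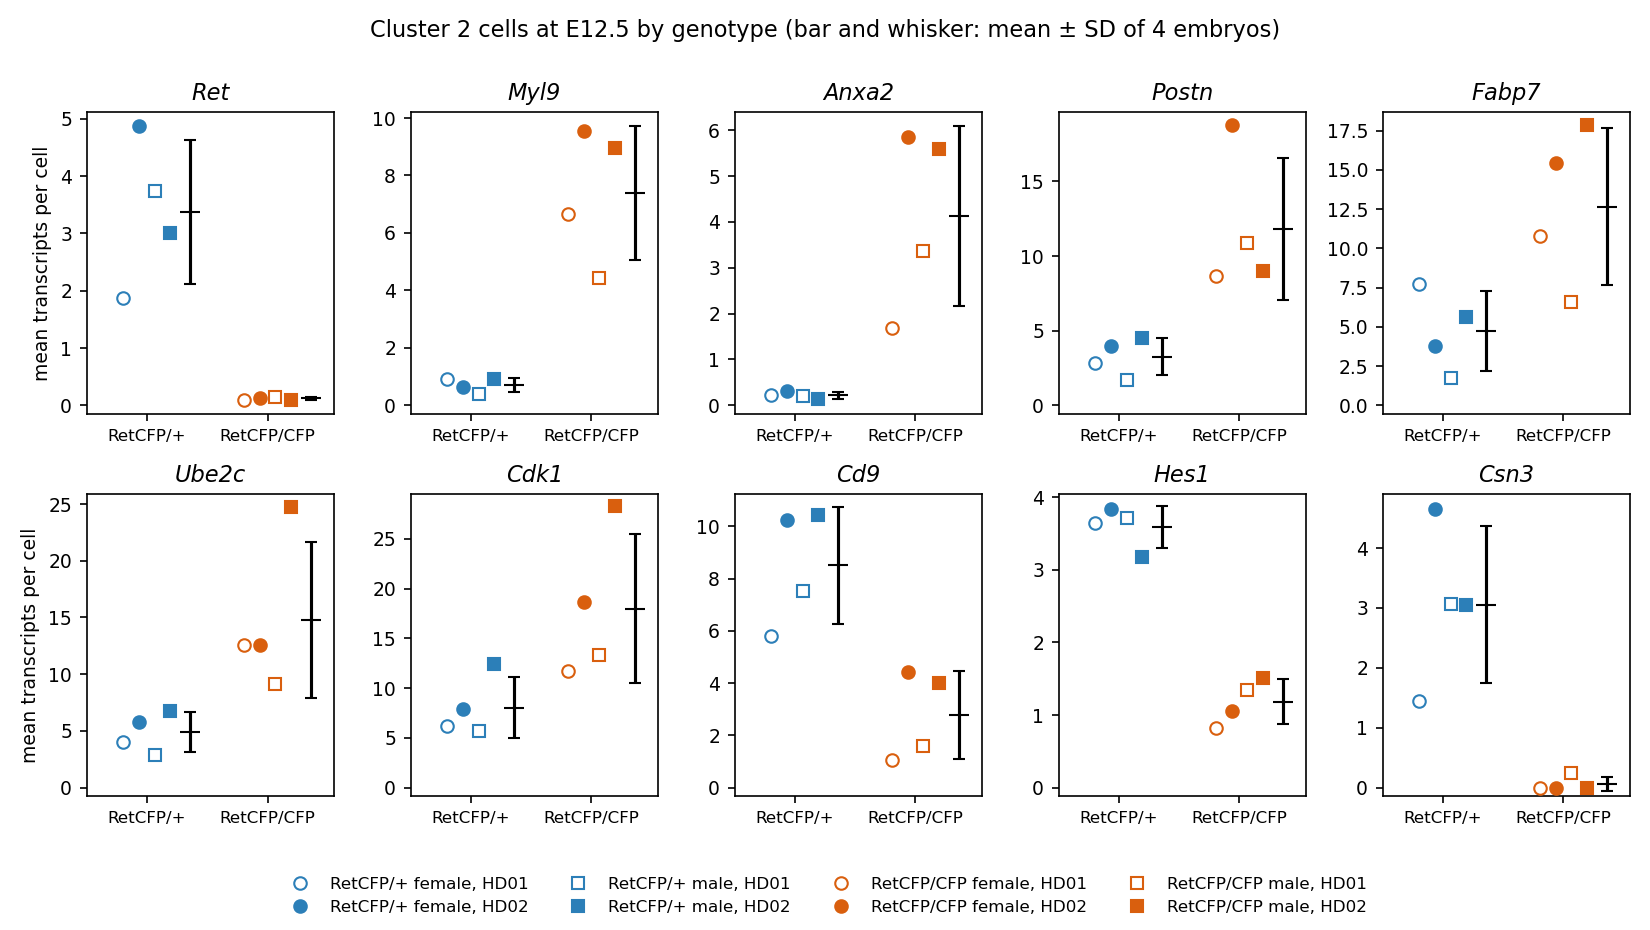
Mean transcripts per cell (linear axes) of 10 genes in the cluster 2 cells of each E12.5 embryo, by genotype, with the mean and SD of the 4 embryos beside each group. Ret, Cd9, Hes1 and Csn3 are higher in every RetCFP/+ embryo than in every RetCFP/CFP embryo, the reverse holds for Myl9, Anxa2, Postn and Ube2c, and Fabp7 and Cdk1 overlap between the genotypes.

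Among the progenitor and glial genes, 11 of 17 passed the filter and 2 were called, both higher (1.12% of all genes were). Fabp7 had 7.71, 3.80, 1.75 and 5.62 transcripts per cell in RetCFP/+ and 10.8, 15.4, 6.57 and 17.9 in RetCFP/CFP. The ranges overlapped, since the RetCFP/+ female of HD01 exceeded the RetCFP/CFP male of HD01, and the log2 difference was 1.30 (adjusted p = 0.0233 in limma). Cells above 1 transcript of Fabp7 made up 53.8% of RetCFP/+ and 87.8% of RetCFP/CFP cells. Sox10 (0.01), Erbb3 (-0.06), Ednrb (0.09) and the neurotrophin receptor gene Ngfr (-0.02) did not pass. The list median was 0.09, against 0.05 over all genes. Fabp7 lost its call under 10 of 22 alternatives and kept its sign.

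Genes of Ret signalling and Hirschsprung disease gave 13 tested members of 25, of which 3 were called lower (0.528% of all genes were). Ret and Rarb passed the low-value filter only through RetCFP/+, and Ret is the targeted gene, so nothing is read from this count. The 3 were Ret itself, Rarb, a retinoic acid receptor, and Spry2, a feedback inhibitor of receptor tyrosine kinases. Rarb had 0.667, 3.22, 1.13 and 2.43 transcripts per cell in RetCFP/+ and 0.282, 0.438, 0.191 and 0.837 in RetCFP/CFP, and fell by 0.92 on the log2 scale with an overlap of the ranges. It shares its interval with Top2b on the opposite strand. Spry2 had 3.14, 3.72, 2.52 and 3.00 against 1.59, 1.82, 1.17 and 2.04, without overlap (-0.63, adjusted p = 0.0477 in limma), and its call held under 5 of 21 alternatives. The co-receptor gene Gfra1 (0.01), the phosphatase gene Dusp6 (-0.30) and the factor gene Etv1 (-0.63, adjusted p = 0.0878) did not pass. The list median was -0.15.

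Dhrs3, a retinaldehyde reductase that is itself a retinoid target, had 1.70, 3.53, 0.696 and 7.26 transcripts per cell in RetCFP/+ and 0, 0.119, 0.103 and 0.357 in RetCFP/CFP. No RetCFP/CFP embryo reached the lowest RetCFP/+ embryo, and the log2 difference was -1.67 (adjusted p = 0.00402 in limma). Hes1, a Notch target that holds cells undifferentiated, had 3.64, 3.84, 3.72 and 3.17 against 0.817, 1.06, 1.35 and 1.51, without overlap (-1.08 ± 0.16, SE, adjusted p = 0.00208). The homeobox gene Hoxb5 had 0.887 to 1.64 in RetCFP/+ and 0.0167 to 0.086 in RetCFP/CFP (-1.14). Dhrs3 and Hoxb5 passed the filter only through RetCFP/+. Hoxb5 shares its interval with Hoxb5os on the opposite strand.

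Cd9, a tetraspanin of the cell surface, had 5.81, 10.2, 7.52 and 10.4 transcripts per cell in RetCFP/+ and 1.06, 4.41, 1.61 and 4.02 in RetCFP/CFP, without overlap (-1.42, adjusted p = 0.000364 in limma). Csn3, which encodes kappa-casein, had 1.44, 4.66, 3.07 and 3.05 in RetCFP/+ and was listed at 0 in 3 RetCFP/CFP embryos and at 0.242 in the male of HD01 (-1.88). Nedd9, an adhesion scaffold, the glutathione transferase gene Gsta4 and Pdpn, a surface glycoprotein, fell by 1.4, 1.45 and 1.21. Csn3, Nedd9, Pdpn and Gal passed the filter only through RetCFP/+. Gal, the neuropeptide galanin, had 0.275, 3.42, 0.524 and 8.07 against 0.00937, 0.365, 0 and 0 (-1.46, adjusted p = 0.0396), with overlapping ranges and calls under 8 of 19 alternatives. Of 5 neuronal genes tested only Elavl4 was called (0.528% of all genes were called lower), by -0.97, and it lost the call under 10 of 21 alternatives.

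Of the 78 called genes, 68 had the same sign in the other progenitor/glia cells and 10 the opposite sign. The filter fixed the direction in 29 of the 78, and both sets of cells come from the same embryos. The share over all tested genes was not worked out, so nothing is read from this count. In the other progenitor/glia cells of the same embryos the log2 difference was 1.6 for Myl9, 1.13 for Anxa2, 0.87 for Postn, 0.78 for Fabp7, -1.05 for Hes1, -1.10 for Hoxb5 and -1.52 for Dhrs3. None of these 7 passed the test of the difference between the 2 sets of cells, with adjusted p-values between 0.367 and 0.987 in limma. Galanin was -3.25 in the other cells and -1.46 in cluster 2, a difference of 1.79 that did not pass (adjusted p = 0.242). A p that misses the threshold does not show that the effects were equal.

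Of the mitotic genes, Ube2c passed the test of the difference between the 2 sets of cells. Ube2c, the ubiquitin-conjugating enzyme of the anaphase-promoting complex, had 4.05, 5.79, 2.84 and 6.80 transcripts per cell in RetCFP/+ cluster 2 cells and 12.6, 12.6, 9.18 and 24.7 in RetCFP/CFP cells. The genotypes did not overlap, and the log2 difference was 1.39 ± 0.19 (SE, adjusted p = 0.00173 in limma). In the other progenitor/glia cells Ube2c had 6.50, 13.3, 10.1 and 14.4 in RetCFP/+ and 9.37, 7.76, 4.71 and 10.2 in RetCFP/CFP, where the ranges overlapped and the difference was -0.41. The difference between the 2 effects was 1.80 (95% interval 1.28 to 2.33, adjusted p = 0.0283), and Ube2c was the 1 gene of 5016 called (0.0199%), with 385 genes under an unadjusted p of 0.05. Leaving out 1 embryo moved that count of calls between 0 and 33, and it was 0 with pseudocount 0.1 or 10, without the low-value filter and with cells scaled to the same total. Among the fits without 1 embryo, Ube2c kept its call only without the RetCFP/+ female or the RetCFP/+ male of HD01 (adjusted p = 0.00155 and 0.0494 in limma). Ube2c shares its interval with Tnnc2 on the opposite strand.

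Cdk1, the kinase that drives entry into mitosis, had 6.2, 7.88, 5.66 and 12.45 transcripts per cell in RetCFP/+ and 11.7, 18.7, 13.3 and 28.3 in RetCFP/CFP. The RetCFP/+ male of HD02 overlapped the lowest RetCFP/CFP embryo, and within each batch and sex RetCFP/CFP was higher (1.05 ± 0.15, SE, adjusted p = 0.00182 in limma). Ccnb1, its cyclin partner, had 6.83, 5.08, 3.38 and 7.16 against 8.68, 10.1, 9.70 and 19.8, without overlap (0.95, adjusted p = 0.0382). Cdc20, which activates the anaphase-promoting complex, had 2.84, 3.72, 4.69 and 5.67 against 4.54, 5.30, 9.99 and 12.3 (0.72, adjusted p = 0.0206). Cdc20 overlaps Elovl1 on the opposite strand.

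Of the 39 G2/M genes, 37 passed the filter and 6 were called higher (1.12% of all genes were): Ube2c, Cdk1, Ccnb1, Cdc20, the Cdk-binding gene Cks2 (0.82) and the polo-like kinase gene Plk1 (0.81). No member was called lower, and 35 of 37 had a positive difference, as did 2813 of all 4736 genes. The list median was 0.44, against 0.05 over all genes. In the other progenitor/glia cells the median of the same list was -0.25, with 1 gene of 37 positive, and over all progenitor/glia cells together it was -0.01. All 37 had a larger difference in cluster 2 than in the other cells, with a median of 0.69, and of these only Ube2c passed the test. The genes of the list share cells, and the cluster label divides the same cells into both sets. The number of called G2/M genes was 0 without the batch term, where 19 genes of any kind passed, and 11 without the RetCFP/+ female of HD01, which are the ends of the range apart from the fit without a filter, which called nothing. The 6 kept their sign under every alternative in which they were tested, but the call held for Plk1 in 4 of 21, for Ccnb1 in 8 of 22, for Cks2 in 10 of 22 and for Cdc20 in 10 of 21, and for Ube2c and Cdk1 in 20 of 22 each.

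The S phase lists had no call on the deposited values. None of the 82 tested members of 5 lists was called (1.65% of all genes were): 24 origin licensing and helicase genes had a median of -0.25 with 7 positive, 27 polymerase, clamp and fork genes -0.07 with 11 positive, 9 nucleotide supply genes -0.14 with 2 positive, 12 chromatin assembly genes -0.20 with 3 positive and 10 fork repair genes -0.35 with 1 positive. At an unadjusted p under 0.05 in limma there were 6, 4, 1, 2 and 4 genes in these 5 lists, against 12.1% of all genes. Of 21 fork repair genes 11 were under the low-value filter, and with all 21 the median was -0.116 with 5 positive. Some alternatives called members lower: 1 origin licensing gene with a pseudocount of 10, a mean of at least 10, cells scaled to the same total or quantile normalization, 1 fork repair gene without the RetCFP/+ female of HD01, and 1 origin licensing and 1 polymerase gene with the embryo as a random block. Mcm7, a helicase subunit, had 9.92, 14.6, 8.86 and 13.1 transcripts per cell in RetCFP/+ and 6.04, 11.1, 5.07 and 9.57 in RetCFP/CFP, with overlapping ranges (-0.53, adjusted p = 0.0605 in limma). Pcna (-0.27, adjusted p = 0.445), Rrm2 (-0.29, adjusted p = 0.525), Exo1 (0.07), Gmnn (0.03) and Hist1h2ao (-0.07) did not pass either. Of the replication-dependent histones 11 of 68 were tested, with no call, 4 positive and a median of -0.02, which was 0.26 with 9 positive when detected genes were a covariate. Of 23 genes of G1/S control 12 were tested, with no call on the deposited values, 8 positive and a median of 0.11. With means of log2 values 1 of them was called higher. Cdkn1c, a Cdk inhibitor, had the largest difference on the deposited values (0.99, adjusted p = 0.109 in limma). In the other progenitor/glia cells the medians of the first 5 lists lay between -0.01 and 0.09.

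**Figure D4:**
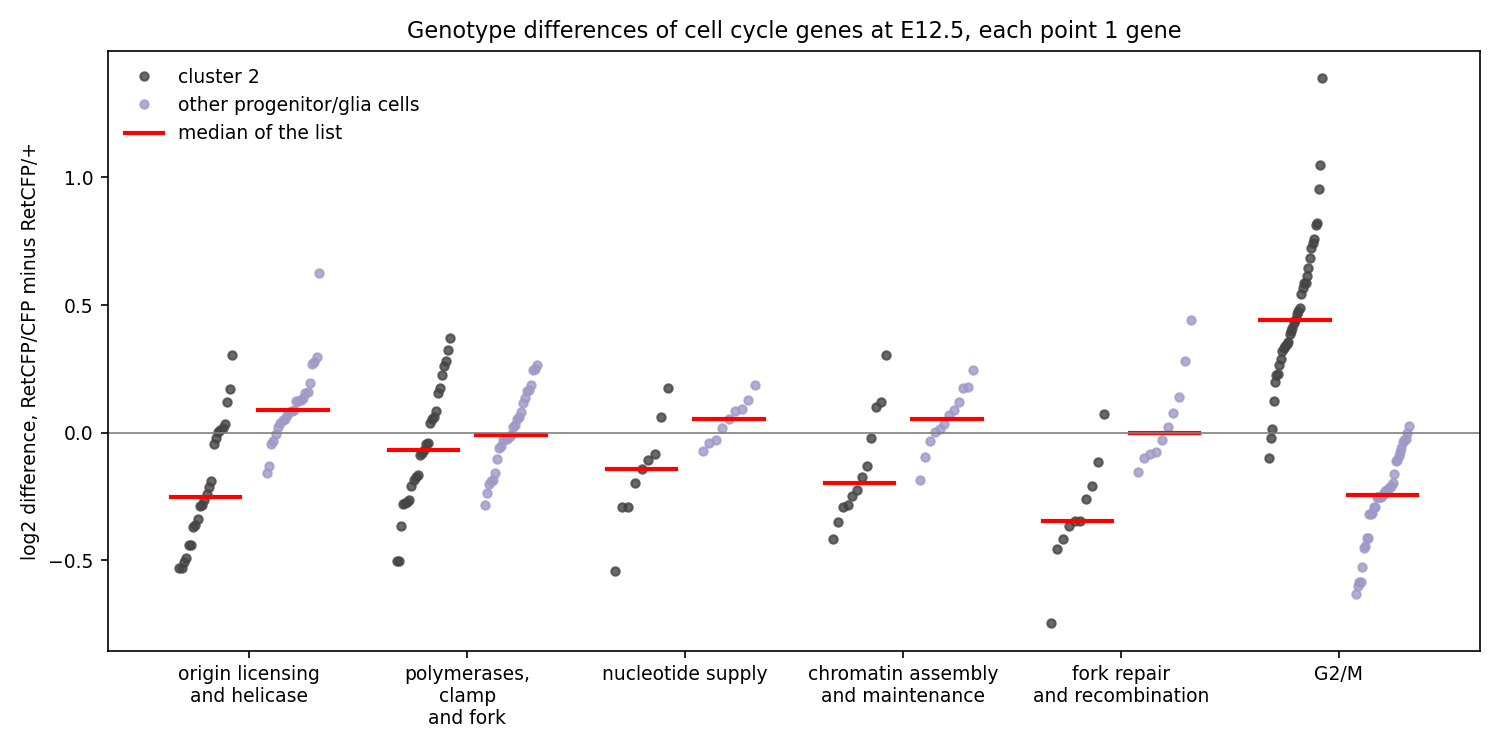
Log2 difference, RetCFP/CFP minus RetCFP/+ at E12.5, of each tested member of 5 S phase lists and the G2/M list, in cluster 2 (dark) and in the other progenitor/glia cells (light), with the median of each list as a red line. G2/M genes lie mostly above 0 in cluster 2 (median 0.44) and mostly below 0 in the other cells (median -0.25).

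The cycle lists were also counted over cells. Cells with more transcripts of the G2/M list than of the S phase list made up 30.8%, 11.1%, 18.8% and 15.4% of cluster 2 cells in RetCFP/+ and 50%, 36%, 76% and 60% in RetCFP/CFP, with no overlap. In the other progenitor/glia cells these shares were 40%, 38.1%, 47.2% and 50% against 45%, 29.2%, 28.1% and 22.2%. No test was attached to this score over the members, which also rises where S phase transcripts are fewer. The median S phase share of a cell's transcripts was 0.929%, 1.07%, 0.826% and 1.19% in RetCFP/+ and 0.56%, 0.998%, 0.605% and 0.778% in RetCFP/CFP, with overlap between the genotypes.

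Mki67, a marker of cycling cells that peaks toward mitosis, was above 1 transcript in 11.1% to 30.8% of an embryo's cluster 2 cells in RetCFP/+ (mean 18.4 ± 8.98%, SD) and in 28% to 50% in RetCFP/CFP (44 ± 10.7%), with overlap (25.6 points, exact permutation test over 8 embryos, two-sided, p = 0.0571, adjusted 0.114 over 6 genes). Top2a, the topoisomerase that untangles sister chromosomes, was above 1 transcript in 77.1 ± 9.92% and 91.4 ± 6.28% of cells (mean ± SD of 4 embryos, exact p = 0.0286, adjusted 0.0857). Ccnb1 gave 77.1 ± 4.45% and 90.4 ± 6.47% (exact p = 0.0286, adjusted 0.0857). The design allows no p below 0.0286. After adjustment none of the 6 genes passed, which at this smallest p would have needed at least 4 genes to reach it. Rrm2 and Mcm5 gave unadjusted exact p-values of 0.543 and 0.343, and Pcna, at 100% in every RetCFP/+ embryo, could not go below the 0.429 it gave. Of 61 predicted neurons at E12.5, 8.2% were above 1 transcript of Mki67, 18% of Top2a and 18% of Ccnb1, at a median of 5646 detected genes.

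The shares of predicted cell types within the cluster were compared over 8 embryos, where 1 type alone cannot reach an adjusted p below 0.114. Over both ages, the authors' labels named 50 cells of the cluster ENTG4, 49 ENTG7, 44 ENTG2, 18 ENTG5 and 14 another type. ENTG7 made up 38.5%, 50%, 25% and 65.4% of cluster 2 cells in RetCFP/+ at E12.5 and 0%, 8%, 4% and 10% in RetCFP/CFP. Every RetCFP/+ embryo was above every RetCFP/CFP embryo, with a difference of -39.2 points (exact permutation test, two-sided, p = 0.0286, the smallest possible, adjusted 0.114 over 4 types). ENTG4 made up 15.4%, 16.7%, 31.2% and 15.4% in RetCFP/+ and 42.9%, 28%, 52% and 50% in RetCFP/CFP, with overlap (exact p = 0.0571, adjusted 0.114). ENTG2 and ENTG5 differed by 1.42 and 11.8 points (exact p = 0.857 and 0.229). In the female RetCFP/CFP embryo of HD01, 0 of 14 cells were ENTG7, which allows a share of up to 21.4%, for counting error only.

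About as many genes passed without the ENTG7 cells. In that fit the cluster had 8, 18, 12 and 9 cells in RetCFP/+ and 14, 23, 24 and 9 in RetCFP/CFP, and 80 genes passed, of which 59 were among the 78. The G2/M list then had 8 genes called higher and a median of 0.62, and 2 origin licensing, 1 nucleotide supply and 1 fork repair gene were called lower. By type, cells with more G2/M than S phase transcripts were counted in both genotypes. In RetCFP/+ they made up 27.3% of 44 ENTG7, 11.8% of 17 ENTG4, 0% of 21 ENTG2 and 20% of 5 ENTG5 cells. In RetCFP/CFP they made up 50% of 4 ENTG7, 64.5% of 31 ENTG4, 45% of 20 ENTG2 and 58.3% of 12 ENTG5 cells. These shares pool cells over embryos and have no test.

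**Figure D5:**
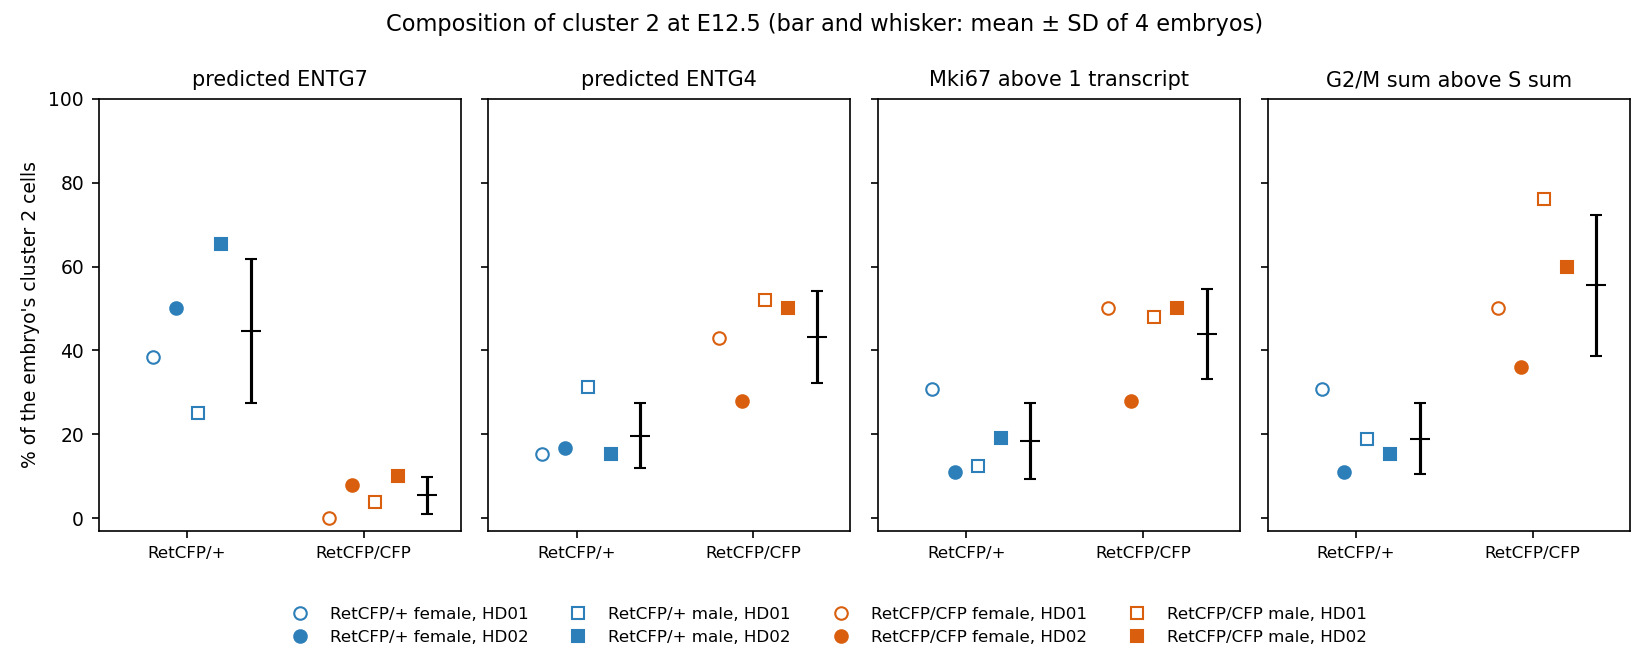
Percent of each E12.5 embryo's cluster 2 cells that were predicted ENTG7 or ENTG4, had more than 1 Mki67 transcript or had more transcripts of the G2/M list than of the S phase list, by genotype, with the mean and SD of 4 embryos. ENTG7 lies between 25% and 65.4% in RetCFP/+ and between 0% and 10% in RetCFP/CFP.

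The share of cluster 2 among progenitor/glia cells was 17.8%, 46.2%, 23.2% and 39.4% in RetCFP/+ and 24.5%, 33.3%, 29.6% and 35.7% in RetCFP/CFP embryos at E12.5. The means were 31.6 ± 13.3% and 30.8 ± 4.87% (SD, n = 4 and 4), and the difference of -0.835 points did not pass (exact permutation test, two-sided, p = 0.943). The difference was 6.58 points among the HD01 embryos and -8.25 among those of HD02, and the share was 17.8 to 29.6% in HD01 and 33.3 to 46.2% in HD02 over both genotypes. Postn and Fabp7, 2 of the leading genes of the cluster, differed between the genotypes, and whether the borders of the cluster fall alike in both was not tested.

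At E14.5 the cluster was small. Of 204 RetCFP/+ progenitor/glia cells 9 carried the label (4.41%, exact Clopper-Pearson 95% interval 2.04 to 8.21%), and of 16 RetCFP/CFP progenitor/glia cells none did, which allows a share of up to 18.8% by 3 counts of 16 and 20.6% by the Clopper-Pearson limit, so no difference was detectable at this depth. Preamplification took more cycles at E14.5, and the 10 labelled cells had a median of 3941 detected genes. Pcna was above 1 transcript in 9 of the 10, Rrm2 in 8 and Hist1h2ao in 7. Means there were 9.18 transcripts per cell for Pcna and 7.89 for Rrm2, against 3.71 and 3.66 in the 211 other progenitor/glia cells of that age.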

How the data were processed

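Single CFP-positive cells were sequenced by a variant of Smart-seq2, per the labels' protocols. Cluster 2 holds 175 of 1003 cells, 171 of them predicted progenitor/glia. The submitters' processing notes name HISAT2 2.0.1, SAMtools 1.2, Cufflinks 2.2.1 and build mm10. The deposited matrix holds, for 32350 genes, other values than counts: estimated transcripts per cell, which sum to the total the authors deposited for each cell. Reads per cell are a deposited whole-number count and aligned reads a deposited percent; how the transcript total was set is not given in the sources used here. Cluster, predicted type, genotype, sex and batch are the authors' labels.

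Values of the cluster 2 cells of a plate were averaged, and log2(mean + 1) was fitted with limma 3.58.1 in R 4.3.3 (lmFit, eBayes with trend) with terms for genotype, sex and batch, over genes with a mean of at least 1 in at least 2 of 8 pools. Genes were called at a Benjamini-Hochberg adjusted p under 0.05. For genes near 0 such a log2 difference is smaller than the change itself. The effect in cluster 2 was set against that in the other progenitor/glia cells by fitting the difference within embryos. Shares of cells were compared by exact permutation over embryos. Batch pairs the samples: deviations from group means correlated within all 4 pairs of 1 sex (0.175 to 0.369), so batch is the replicate block. Batch itself was called in 2427 genes and sex in 3. Named genes are the markers, of the called genes the 10 in either direction that differed most, with 1 sign in 4 pairs, genes called in the second test, list members that were called or had the highest mean, and the genes that set the cluster apart most; Etv1, Ngfr, Erbb3, S100b, the Hox genes, Kpna2, Prc1 and Eya1 were added after their values were seen. Members, gene lists and tests were chosen with earlier results of these data known.

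Steps were tested on simulated data. Gene intervals are those of GENCODE vM21 (GRCm38): 32078 identifiers matched, 32062 with an overlapping deposited interval. The use of strand in counting is not given in the sources used here, so overlapping genes are named for some genes. Others with an annotated overlap include Csn3, Cd9, Nedd9, Mcm7, Plk1, Tk1, Rad51ap1 and Prc1. Depth is 45895 to 3059509 reads per cluster 2 cell. Intervals on shares of cells cover counting error only, and the interval given for Ube2c covers the spread between embryos. Whether embryos shared a litter is not given, and p-values measure the spread between these 8 plates. No doublet caller was run. Some results on single genes are not reported here.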

Additional observations from a re-analysis of the deposited data

Results flagged for a closer look

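The genotype difference of Ube2c, RetCFP/CFP minus RetCFP/+, was larger by 1.80 on the log2 scale in cluster 2 than in the other progenitor/glia cells of the same embryos, and the test of that difference passed (adjusted p = 0.0283 in limma). Its adjusted p was 0.438 and 0.279 with pseudocounts of 0.1 and 10, 0.55 without the low-value filter, 0.0519 with scaled cells and 0.00155 to 0.329 leaving out 1 embryo.

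Among 78 groups of 4 embryos, 9 held a value that stood apart from the other 3 by more than Dixon's 95% critical value, and chance gives about 1 in 20. Each lowest or highest value below is so only among the 4 embryos of its own genotype. Cd200 was lowest in the RetCFP/CFP female of HD01 (1.16 transcripts per cell). Csn3 was present only in the RetCFP/CFP male of HD01 (0.242) among the 4 embryos of that genotype. Gal was highest in the RetCFP/CFP female of HD02 (0.365). Hist1h2ao was highest in the RetCFP/CFP male of HD02 (17.8), and Pdpn was lowest in the RetCFP/+ male of HD01 (1.65). That same RetCFP/+ male had the highest ENTG4 share (31.2%) and the lowest share of cells above 1 transcript of Mcm5 (81.2%). The RetCFP/CFP female of HD02 had the lowest Mki67 share (28%), and the RetCFP/CFP male of HD02 the highest Ccnb1 share (100% of 10 cells).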

How the results depend on the processing

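Every one of the 78 called genes kept its sign under each alternative in which it was tested, but the share of tested genes called, 1.65% (78), moved. It was 0.401% (19) with no replicate block, 0% of 15225 without the low-value filter (1248 at an unadjusted p under 0.05 in limma), 3.62% (17 of 469) with a mean of at least 10, 0.929% (44, of which 33 are among the 78) with detected genes as a covariate and 3.36% with the embryo as a random block over both pools. Leaving out 1 embryo gave 0.845% to 2.53%, the highest without the RetCFP/+ female of HD01, and 39, 41, 42 and 41 calls without RetCFP/+ male HD02, RetCFP/+ female HD02, RetCFP/CFP female HD02 and RetCFP/CFP male HD01. The count was 57 and 69 with pseudocounts of 0.1 and 10, 83 without sex, 55 scaled and 60 after quantile normalization. For the test between cell sets the count was 0 with pseudocounts of 0.1 and 10, without the filter and scaled, and 0 to 33 leaving out 1 embryo. Ret was -1.92 without the filter but not called (adjusted p = 0.201), and -2.14 to -1.72 leaving out 1 embryo. CFP was -0.95 with detected genes as a covariate (adjusted p = 0.0412) and -0.62 to -0.16 leaving out 1 embryo. The causes were not tested.

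Uncalled S phase genes changed sign. Gmnn was -0.0569 scaled, -0.0556 after quantile normalization, -0.0313 with means of log2 values, -0.0281 within HD01 and -0.0506 to 0.116 leaving out 1 embryo. Exo1 was -0.0271 scaled, -0.0174 after quantile normalization and -0.0847 to 0.248 leaving out 1. Hist1h2ao was 0.0899 with means of log2 values, 0.656 with detected genes as a covariate and -0.371 to 0.236 leaving out 1. Rrm2 was 0.0103 and Rad51ap1 0.0702 within HD02. The S phase list's median difference from the other cells was 0.548, 0.834 with pseudocount 0.1 and 0.523 to 0.614 leaving out 1.

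Within the batch block, the differences of ENTG7 (-39.2 points), Top2a (14.3) and Ccnb1 (13.4) had an exact p of 0.0556, the smallest that pairing allows. Leaving out 1 embryo gave -45.8 to -32.3 points for ENTG7, 20.6 to 28.6 for ENTG4, 23.2 to 30.9 for Mki67, 9.45 to 16.8 for Top2a and 10.2 to 15.4 for Ccnb1, with exact p-values of 0.0286 to 0.0857. Top2a gave 8.26 points above 0 and 20.5 above 5 transcripts (exact p = 0.343 and 0.143). Pcna gave -15.1 points in HD01, 0 in HD02 and -10.1 to -4.76 leaving out 1 embryo, and Rrm2 1.62 in HD02 and -3.51 to 0.214. ENTG2 was -0.735 in HD02 and -4.02 to 6.56. The cluster share was 6.58 points in HD01, 0.0589 without 2-cell wells and cells under 100000 reads and -5.44 to 4.00 leaving out 1 embryo. With 4 embryos a genotype and 10 to 36 cells each, the spread over embryos limits these shares.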

Other observations

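Hox genes were looked at after their values were seen, since Hoxb5 was among the lower genes. Of 39 in the table, 5 were tested in cluster 2, and 4 were called lower (0.528% of all genes were). Hoxb5, Hoxb2, Hoxa5 and Hoxa2 passed the low-value filter only through RetCFP/+, so their direction was fixed by it and nothing is read from the count. Besides Hoxb5, Hoxd3 had 2.39 to 5.71 transcripts per cell in RetCFP/+ and 1.05 to 2.80 in RetCFP/CFP (-0.86, adjusted p = 0.0107 in limma). Hoxb2 (-0.70, adjusted p = 0.0382) and Hoxa5 (-0.84, adjusted p = 0.0475) were called as well, and Hoxa2 was -0.70 (adjusted p = 0.0533). These genes set position along the gut and hindbrain. They lie in the 4 pairs on the same side, but the filter fixed the direction of all but Hoxd3. Nothing is therefore read from their shared side. Several overlap neighbours or antisense genes, so reads of a neighbour cannot be told apart. Further called genes outside the lists, also chosen after their values were seen, were the nuclear importin gene Kpna2 (1.28) and the spindle midzone gene Prc1 (0.97), both higher, and Eya1 (-0.88), a cofactor of neural crest and placode development, which was listed at 0 in at least 1 RetCFP/CFP embryo and was tested only through RetCFP/+.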
